A study of Mus musculus with 8 samples.

Results

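The genes Pecam1, Cdh5, Kdr, Tie1, Tek, Vwf, Egfl7, Emcn and Plvap, which mark the lining of blood vessels, and Lyve1, which marks that of lymph vessels, were followed in the small intestine of suckling mice given arsenic or vehicle. They were taken by symbol from the deposited count table, which lists 24411 genes, and all 10 were found and had enough counts to be tested. All mice were of the hUGT1 transgenic line, which carries the human UGT1 locus, and were 14 days old. A control group received vehicle and the other group received arsenic at 10 mg/kg, and both carry a time of 24 h in the labels. RNA was pooled from 3 mice at a time, 12 mice and 4 libraries per group, so that the spread reported is that between pools and not between single mice. The sources used here name neither the part of the small intestine nor the route of dosing.

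Endothelial cells form the inner wall of every vessel. Their growth and survival are driven mainly by vascular endothelial growth factors, which act on the receptor KDR (VEGFR2), and by angiopoietins, which act on the receptor TEK (TIE2), with TIE1 as its partner. In the villi of the gut, a dense net of fenestrated capillaries takes up sugars and amino acids, and a central lymph vessel, the lacteal, carries away absorbed fat. The bulk tissue also holds epithelium, muscle, immune cells and stroma, and fewer endothelial cells and less RNA per endothelial cell cannot be told apart in it.

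With arsenic, the 9 blood vessel markers fell and the lymph vessel marker Lyve1 rose. The falls ran from 14.6% for Emcn to 30.9% for Cdh5, and Lyve1 rose by 23.8%. By edgeR's quasi-likelihood test, with p adjusted over 15298 genes by Benjamini-Hochberg and a threshold of 0.05, all 10 markers were called, against 65.3% of all genes tested. Of them 9 were lower, against 33.0% of all genes, and 1 was higher, against 32.3%. The 4 arsenic pools lay wholly below the 4 vehicle pools for 9 of 10 markers, which held for 29.3% of all genes. They lay wholly above them for 1 of 10, which held for 30.1% of all genes. The median log2 fold change (arsenic over vehicle) was -0.45 over the 10 markers and -0.03 over all genes tested. None of the markers was lower by as much as 1.5-fold, which 10.6% of all genes were, so the changes were moderate in size. Values are CPM, that is, counts brought to a common library total, scaled by TMM, a factor per library that treats most genes as unchanged.

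**Figure D1:**
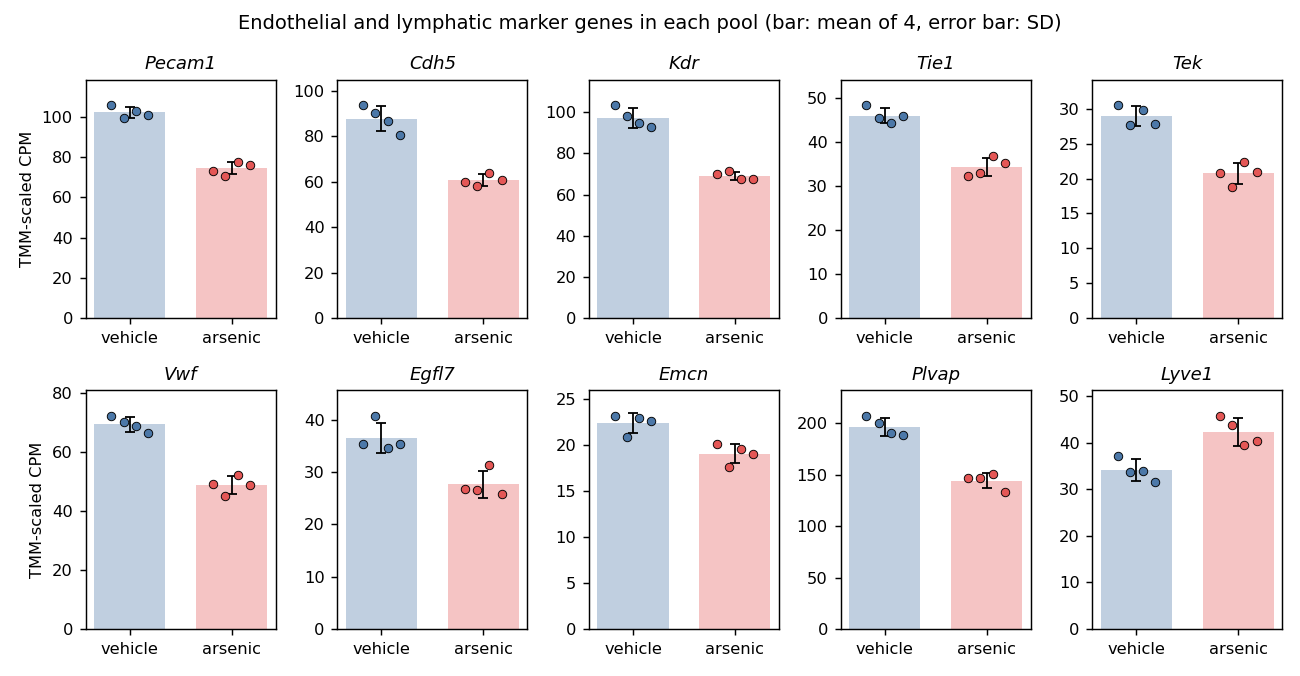
TMM-scaled CPM of each marker gene in the 4 vehicle and the 4 arsenic pools (points), with the mean (bar) and SD (error bar), each panel on its own scale from 0. The arsenic pools lie below all vehicle pools for 9 genes and above them for Lyve1.

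The sequences before the transcription starts of the receptor genes, of Egfl7 and of Emcn are shown. Only these markers had an entry among the RefSeq upstream sequences used here. Endothelial genes are bound by transcription factors of the ETS family, such as ERG and FLI1, whose sites centre on GGAA. The motif searched was AGGAAG on either strand (CTTCCT when read on the other strand). GGAA with other flanking bases also occurs in the windows and was not marked or counted. Each line gives the 250 bases before the start of a RefSeq transcript on the GRCm38.p6 build, 5′ to 3′ on the strand of the gene, with matches in capitals. Egfl7 has 3 starts in that table and the second is printed. The window of the first, not printed, held matches 216, 89 and 49 bases before its start, and that of the third held 0.
Kdr, chr5:75978456-75978705, minus strand: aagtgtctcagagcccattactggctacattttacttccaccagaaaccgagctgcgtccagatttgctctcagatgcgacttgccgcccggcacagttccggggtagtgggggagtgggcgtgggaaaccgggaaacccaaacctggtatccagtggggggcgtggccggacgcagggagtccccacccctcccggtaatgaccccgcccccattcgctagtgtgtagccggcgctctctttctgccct
Tie1, chr4:118489850-118490099, minus strand: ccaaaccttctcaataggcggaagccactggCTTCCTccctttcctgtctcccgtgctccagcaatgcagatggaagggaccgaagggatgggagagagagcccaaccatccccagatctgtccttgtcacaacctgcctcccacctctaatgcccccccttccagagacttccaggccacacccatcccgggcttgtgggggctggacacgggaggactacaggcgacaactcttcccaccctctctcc
Tek, chr4:94739039-94739288, plus strand: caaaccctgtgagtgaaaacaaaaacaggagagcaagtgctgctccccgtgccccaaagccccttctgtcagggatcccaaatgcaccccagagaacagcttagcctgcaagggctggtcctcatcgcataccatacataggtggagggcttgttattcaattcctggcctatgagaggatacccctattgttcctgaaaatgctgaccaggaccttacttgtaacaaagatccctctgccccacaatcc
Egfl7, chr2:26583615-26583864, plus strand: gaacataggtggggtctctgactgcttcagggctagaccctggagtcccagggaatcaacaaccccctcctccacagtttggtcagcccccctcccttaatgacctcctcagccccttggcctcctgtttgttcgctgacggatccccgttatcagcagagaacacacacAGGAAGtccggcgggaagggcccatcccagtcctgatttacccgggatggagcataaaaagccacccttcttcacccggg
Emcn, chr3:137340828-137341077, plus strand: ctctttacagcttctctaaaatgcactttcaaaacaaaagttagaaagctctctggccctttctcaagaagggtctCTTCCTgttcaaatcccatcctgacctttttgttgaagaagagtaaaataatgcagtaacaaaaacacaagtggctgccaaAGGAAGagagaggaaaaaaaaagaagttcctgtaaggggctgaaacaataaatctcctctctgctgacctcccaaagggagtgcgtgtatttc

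The match in the Tie1 window began 219 bases before the start and that in the printed Egfl7 window 80 bases before it. The Emcn window held matches 174 and 93 bases before the start. Over the 5 markers with an entry, 4 of 7 windows held the motif, and 29.5% of the 32851 windows of this length in the table did. These are matches of letters in a short window, and no binding was measured.

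The adhesion genes of endothelial junctions fell. Pecam1 codes for CD31, which joins endothelial cells to each other and to passing leukocytes, and lies on chromosome 11 from 106654217 to 106750628 of the mm10 build (ENSMUSG00000020717, minus strand). It stood at 106, 99.1, 103 and 101 CPM in vehicle replicates 1 to 4 and at 73.1, 70.7, 77.4 and 75.9 CPM in arsenic replicates 1 to 4. Every arsenic pool was more than 20 CPM under the lowest vehicle pool. The mean fell from 102 ± 2.79 to 74.3 ± 2.98 CPM (SD, n = 4 pools per group), a log2 fold change of -0.46 (SE 0.04, adjusted p = 6.42e-08 in the edgeR test). Cdh5 codes for VE-cadherin, the cadherin of endothelial junctions, and lies on chromosome 8 from 104101625 to 104144511 (ENSMUSG00000031871, plus strand). It stood at 93.6, 90.3, 86.8 and 80.5 CPM with vehicle and at 60.02, 58.04, 64.08 and 60.79 CPM with arsenic. The vehicle pools spread over a wider range than the arsenic pools, and the groups did not overlap. The log2 fold change of -0.53 (SE 0.05, adjusted p = 1.39e-07) was the most negative of the 10, and 12.7% of all genes tested had a more negative one.

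The genes of the receptor tyrosine kinases that control vessel growth and stability fell by similar amounts. Kdr, the main signalling receptor for VEGFA, lies on chromosome 5 from 75932827 to 75978458 (minus strand). It stood at 103, 98.1, 94.5 and 92.6 CPM with vehicle and at 69.8, 71.3, 67.8 and 67.4 CPM with arsenic. The arsenic pools were close together and far from the vehicle pools, and the log2 fold change was -0.49 (SE 0.04, adjusted p = 5.01e-08). Tie1, the partner of TEK, stood at 48.4, 45.4, 44.4 and 45.9 CPM with vehicle and at 32.2, 33.0, 36.9 and 35.3 CPM with arsenic. Tek, the angiopoietin receptor, stood at 30.5, 27.6, 29.8 and 27.9 CPM with vehicle and at 20.8, 18.8, 22.4 and 20.9 CPM with arsenic. For both genes the highest arsenic pool was replicate 3, which still lay below every vehicle pool. Tie1 and Tek both lie on chromosome 4, Tie1 from 118471191 to 118490061 on the minus strand and Tek from 94739289 to 94874976 on the plus strand. Their log2 fold changes were -0.42 (SE 0.05, adjusted p = 2.68e-06) and -0.48 (SE 0.06, adjusted p = 4.89e-06).

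The RNA of both genes for secreted products fell. Vwf codes for von Willebrand factor, which captures platelets at a damaged vessel wall, and is stored in endothelial cells and in platelets. It lies on chromosome 6 from 125546774 to 125686679 (plus strand). Its CPM was 72.3, 70.1, 68.7 and 66.5 with vehicle and 49.2, 45.0, 52.4 and 49.0 with arsenic. The groups lay apart, and the log2 fold change was -0.51 (SE 0.05, adjusted p = 1.81e-07). Egfl7 codes for a protein that endothelial cells lay down around growing vessels, and lies on chromosome 2 from 26580014 to 26593120 (plus strand). Its CPM was 35.4, 40.75, 34.6 and 35.4 with vehicle and 26.8, 26.6, 31.3 and 25.8 with arsenic. Vehicle replicate 2 and arsenic replicate 3 stood above the other pools of their groups, and the groups did not overlap. The log2 fold change was -0.40 (SE 0.07, adjusted p = 0.000105). Egfl7 shares 64 exon bases with Agpat2 on the other strand, which has more counts, and 264 with Gm20532 on its own strand. No source used here states the strand setting of the counting, so the Egfl7 value is uncertain to the extent that such reads were counted for it.

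The gene of the endothelial microRNA miR-126 lies within the span of Egfl7. Its mature form from RefSeq (chr2:26591402-26591423, plus strand, GRCm38.p6) is shown for that reason, with the seed, bases 2 to 8, in capitals.
mmu-miR-126a-3p: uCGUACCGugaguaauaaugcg
Libraries of polyadenylated RNA do not measure mature microRNAs, and the symbol Mir126a had 4 to 18 counts per library, so nothing was drawn from it.

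The genes for surface proteins of small vessels differed in the size of their fall. Plvap, which forms the diaphragms of fenestrated capillaries, lies on chromosome 8 from 71497765 to 71511752 (minus strand). It had the highest CPM of the 10, at 207, 200.4, 190.3 and 189 with vehicle and 147, 147, 151 and 133 with arsenic. All arsenic pools were well below the vehicle pools, with a log2 fold change of -0.45 (SE 0.05, adjusted p = 5.60e-07). Emcn codes for endomucin, a mucin-like protein of capillaries and veins, and lies on chromosome 3 from 137341067 to 137432185 (plus strand). It stood at 23.1, 20.8, 22.9 and 22.5 CPM with vehicle and at 20.04, 17.59, 19.5 and 18.98 CPM with arsenic. The lowest vehicle pool and the highest arsenic pool were less than 1 CPM apart, so the groups lay next to each other without overlap. The log2 fold change of -0.23 (SE 0.06, adjusted p = 0.00302) was the smallest of the falls. It was not shown to be larger than 1.2-fold by edgeR's test against that size (adjusted p = 0.756), which the other 8 blood vessel markers passed. Its 95% interval, -0.351 to -0.103, does not exclude a larger fall.

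Lyve1 went the other way. It codes for a hyaluronan receptor of lymphatic endothelium that some tissue macrophages also carry, and lies on chromosome 7 from 110850607 to 110863239 (ENSMUSG00000030787, minus strand). It stood at 37.2, 33.8, 33.9 and 31.6 CPM with vehicle and at 45.8, 43.7, 39.5 and 40.3 CPM with arsenic. Every arsenic pool was above every vehicle pool. The mean rose from 34.1 ± 2.31 to 42.3 ± 2.95 CPM, a log2 fold change of 0.31 (SE 0.06, adjusted p = 0.000314), and 77.6% of all genes tested had a lower one. Against a 1.2-fold change the rise did not pass (adjusted p = 0.203). In the authors' deposited table the log2 fold change of Lyve1 was 0.321 (adjusted p = 1.22e-05), and those of the 9 blood vessel markers ran from -0.52 for Cdh5 to -0.215 for Emcn, all with an adjusted p below 0.05.

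**Figure D2:**
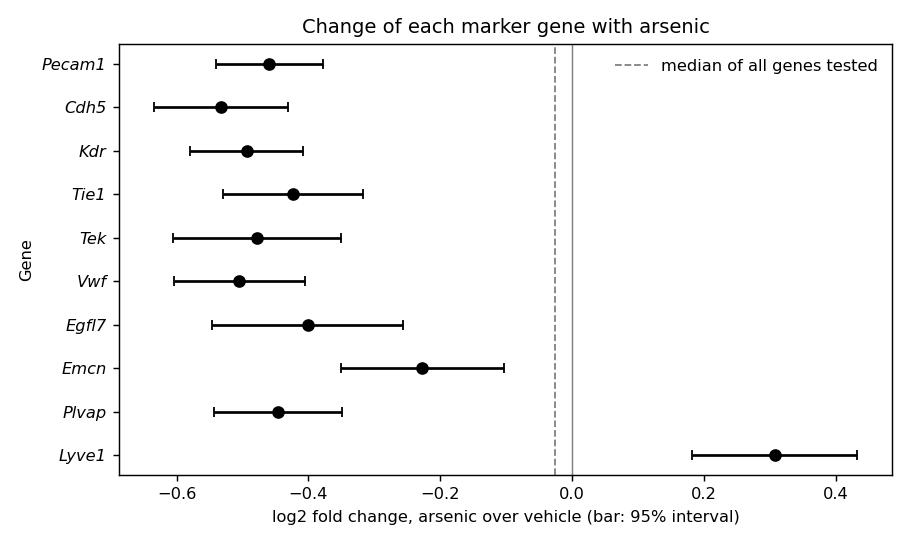
Log2 fold change (arsenic over vehicle) of each marker gene with its 95% interval from the edgeR fit of all 8 libraries. The dashed line is the median of all genes tested (-0.03), the blood vessel markers lie between -0.53 and -0.23, and Lyve1 lies at 0.31.

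The blood vessel markers kept nearly the same proportions to each other, with Emcn as the exception, while Lyve1 shifted against them. The log2 ratio to Pecam1 differed between the groups by -0.07 for Cdh5, -0.03 for Kdr, 0.04 for Tie1, -0.02 for Tek, -0.05 for Vwf, 0.06 for Egfl7 and 0.01 for Plvap. The vehicle and arsenic pools overlapped in each of these 7 ratios. In the vehicle pools the log2 ratio of Emcn to Pecam1 lay between -2.25 and -2.16, and in the arsenic pools it ranged from -2.002 to -1.863, with no overlap. That of Lyve1 to Pecam1 lay between -1.67 and -1.50 in vehicle pools and between -0.97 and -0.68 in arsenic pools. The mean difference of the Lyve1 ratio was 0.77. Its separation follows from the values of Lyve1 and Pecam1, whose groups lay apart in opposite directions, so it was given no test. Flt4, the receptor of the lymphatic growth factor VEGFC, served as a second reference. Against it the Lyve1 log2 ratio rose from -0.24 ± 0.08 to 0.47 ± 0.10 (SD, n = 4 pools per group), and the same holds, since Flt4 fell without overlap. Both ratios were chosen with the direction of Lyve1 known.

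**Figure D3:**
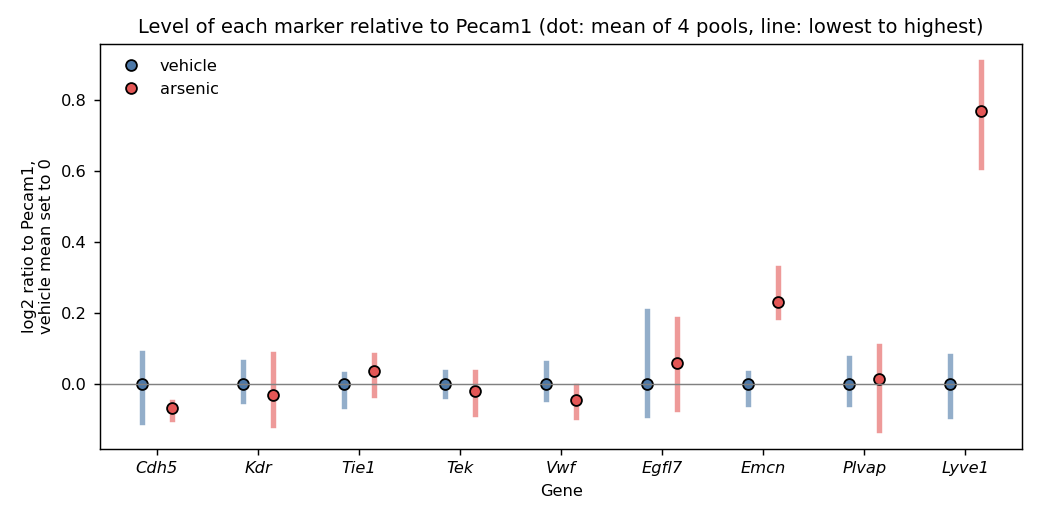
Log2 ratio of each marker to Pecam1 in vehicle and arsenic pools, with the vehicle mean set to 0 (dot, mean of 4 pools; line, lowest to highest pool). Lyve1 (0.77) and Emcn (0.23) lie above the vehicle range, and the other 7 overlap it.

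Levels were compared between genes per kilobase of the principal GENCODE M21 transcript. With vehicle, Plvap stood highest at 99.0 ± 4.38 CPM per kb, followed by Pecam1 at 31.1 ± 0.85, Egfl7 at 26.3 ± 2.04 and Cdh5 at 21.98 ± 1.41 (n = 4). Emcn at 16.5 ± 0.78 and Kdr at 16.4 ± 0.79 came next and did not differ beyond their spread. They were followed by Lyve1 at 11.8 ± 0.80 and Tie1 at 11.3 ± 0.41, whose ranges overlapped, then by Vwf at 7.86 ± 0.28 and Tek at 6.22 ± 0.31. With arsenic, Lyve1 at 14.6 ± 1.02 CPM per kb moved from the seventh to the fifth place, above Emcn at 14.0 ± 0.78 and Kdr at 11.7 ± 0.30, and its range overlapped that of Emcn. The order depends on the transcript chosen. The longest annotated form of Emcn has 3521 bases against 1357 for the principal one and would put it at 6.35 CPM per kb with vehicle, in place 9, so that Kdr and Lyve1 would stand in places 5 and 6. That of Egfl7 would put it at 19.6 CPM per kb, below Cdh5.

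Within the groups, the pools high in one blood vessel marker tended to be high in others. Vehicle replicate 1 had the highest sum of the 9 blood vessel markers among vehicle pools, 719 CPM, and vehicle replicate 4 the lowest, 661 CPM. Among the arsenic pools, replicate 3 was highest at 523 CPM and replicates 2 and 4 were lowest at 488 and 487 CPM. The pools differed in sex makeup too, as read from Xist, which is transcribed in females. In each group Xist was lowest in the pool with the highest sum, at 451 CPM in vehicle replicate 1 and 9.82 CPM in arsenic replicate 3, and it was highest among vehicle pools in replicate 4, at 1392 CPM. The order did not hold throughout, since arsenic replicate 4 had the lowest sum of its group at 388 CPM of Xist, and arsenic replicate 1 the second highest sum, 499 CPM, at the highest Xist, 928 CPM. Xist overlapped between the groups, whereas the lowest vehicle sum was 661 CPM and the highest arsenic sum 523 CPM. With Xist as a covariate in the edgeR fit, 9 markers were lower and 1 was higher, as before, with log2 fold changes from -0.57 for Cdh5 to 0.34 for Lyve1. Without vehicle replicate 4 and arsenic replicate 3, the pools at the ends of the Xist range, the counts were again 9 and 1 (Cdh5 -0.60, Emcn -0.24 and Lyve1 0.31).

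**Figure D4:**
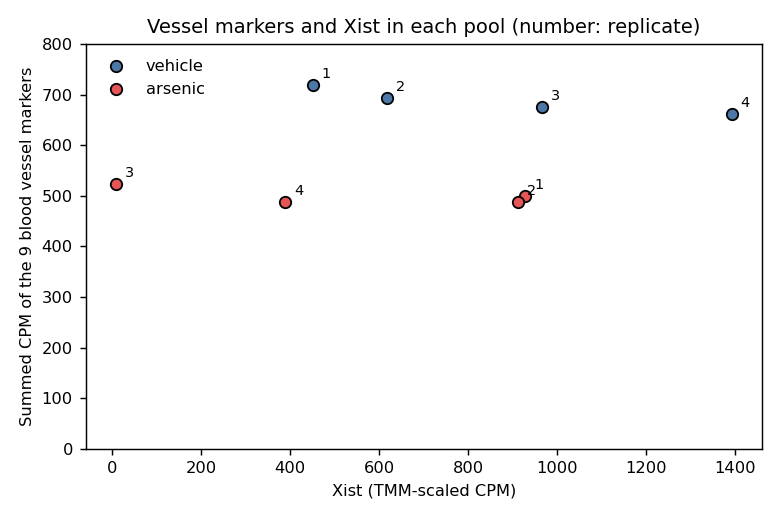
Summed TMM-scaled CPM of the 9 blood vessel markers against Xist CPM in each pool, with replicate numbers beside the points and the vertical axis from 0. Vehicle pools lie between 661 and 719 CPM and arsenic pools between 487 and 523 CPM, over Xist ranges that overlap.

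After removal of the group means, the 45 pairs of markers had a median Pearson correlation of 0.38 over the 8 libraries, with 36 pairs above 0, as a description of pools that share depth and dissection. By the same measure, the non-members most like the mean profile of the markers were Ppp1r8 (0.97), Angpt2 (0.97), Zak (0.97), Srsf7 (0.96) and Fli1 (0.96). Among them, Fli1, an endothelial ETS factor, fell with arsenic (log2 -0.40, adjusted p = 0.000506) and Ppp1r8 rose (0.46, adjusted p = 1.97e-06), and Angpt2, an antagonist of TEK, was at -0.15 (adjusted p = 0.24).

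Other genes of endothelial cells fell with the markers. Here and in every list that follows, the counts stand against 33.0% of all genes tested lower and 32.3% higher. A count near these shares is not a result about its list. Of 20 further pan-endothelial genes, 18 were lower, none was higher, and the median log2 fold change was -0.40. Cd34, a surface sialomucin, went from 52.8 ± 2.201 to 38.1 CPM (log2 -0.47, adjusted p = 2.68e-07), Cd93 was at -0.40, and Robo4, a guidance receptor that steadies vessels, at -0.44. Ecscr and S1pr1, named after their values were seen, did not pass, at -0.14 (adjusted p = 0.142) and -0.14 (adjusted p = 0.0543). Of 19 endothelial transcription factors, 15 were lower and none higher, with a median of -0.40. Among them, Sox7 was at -0.80 (adjusted p = 1.04e-05), Hhex at -0.64, the ETS factor Erg at -0.54 and Elk3 at -0.41. Sox18 stands in both lists, and several other genes, such as Flt1, Flt4, Hey1 and Pgf, stand in more than 1 list.

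The ligands and receptors of the VEGF and angiopoietin pathways were mostly lower. Vegfa, the ligand of KDR, fell from 292 ± 23.5 to 179 CPM, a log2 fold change of -0.71 (SE 0.05, adjusted p = 1.83e-08), larger in size than that of any of the 10 markers. Of 7 ligands tested, 5 were lower and none higher (median -0.30). They included Pgf at -0.64 (adjusted p = 0.00377), which binds FLT1, Angpt1, which activates TEK, at -0.43 (adjusted p = 0.00408) and Vegfb at -0.30. Of 10 receptors and partners, Kdr, Tie1 and Tek included, 9 were lower and none higher (median -0.39). Flt1, which binds VEGFA tightly but signals weakly, was at -0.41 (adjusted p = 3.84e-06) and Flt4 at -0.41 (adjusted p = 1.97e-06). Vegfa also stands in a list of 12 hypoxia-induced genes, which was divided, with 5 lower and 6 higher. There the carbonic anhydrase Car9 rose (log2 1.59), as did the glucose transporter Slc2a1 (1.22) and the prolyl hydroxylase Egln3 (0.93), while Ankrd37 fell by 1.49 on the log2 scale.

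No other gene of the lymphatic list passed the test upwards with all libraries. Of 10 lymphatic endothelial genes tested, 6 were lower and none was higher (median -0.23), and 1 was higher without vehicle replicate 1. Flt4 went from 40.2 ± 1.74 to 30.4 CPM, Reln, which lymphatic endothelium secretes, was at -0.28 (adjusted p = 0.000907), the integrin Itga9 at -0.20 (adjusted p = 0.000596) and the scavenger receptor Stab2, a low-count gene, at -1.31 (adjusted p = 8.02e-07). Genes that missed the threshold, named after their values were seen, were Mmrn1 at -0.09 (adjusted p = 0.138), Pdpn at 0.11 (adjusted p = 0.316) and Sema3d at 0.20 (adjusted p = 0.143). Prox1, also named after its values were seen, was among the lower genes. It went from 6.97 to 5.80 CPM without overlap (log2 -0.26, adjusted p = 0.0202 in the edgeR test). Ccl21a was listed at 0 in every library. It has near-identical copies, and the sources used here do not say how shared reads were treated.

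The lists for vessel subtypes held falls and rises, as did all genes tested (33.0% lower and 32.3% higher). In the arterial and NOTCH list, 9 of 12 were lower and 1 was higher (median -0.28), with the receptors Notch1 at -0.40 and Notch4 at -0.29 and the NOTCH target Hey1 at -0.53. The arterial ephrin Efnb2, which other cells of the gut also express, rose (0.40, adjusted p = 1.67e-06). Genes of the vessel lists that fell may likewise be expressed by other cells, which bulk tissue does not separate. In the tip cell list, 7 of 9 were lower and 1 was higher (median -0.37). Esm1, a proteoglycan of sprouting endothelium, fell from 18.9 ± 1.18 to 10.5 CPM (log2 -0.84, adjusted p = 2.07e-08), the chemokine receptor Cxcr4 was at -1.01 and the basement membrane gene Nid2 at -0.36. The potassium channel subunit Kcne3, which gut epithelium also expresses, rose (0.65, adjusted p = 2.15e-07). In the capillary and fat-handling list, 4 of 9 were lower and 1 was higher (median -0.15). The fatty acid transporter Cd36, present in enterocytes as well, was at -1.09, the apelin receptor Aplnr at -0.75 (adjusted p = 5.00e-09), Slc9a3r2 at -0.28 and Rgcc at 0.30.

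In the venous and leukocyte adhesion list, 4 of 8 were lower and none higher (median -0.27), against 33.0% and 32.3% of all genes tested. Only 2 were lower without vehicle replicate 2 or without arsenic replicate 4, and 1 was higher without vehicle replicate 1 or without arsenic replicate 4. The adhesion molecules Icam1 and Vcam1 were at -0.41 (adjusted p = 0.00101) and -0.40 (adjusted p = 0.000876), and Madcam1, which guides lymphocytes to the gut, was at -0.26 (adjusted p = 0.0233). Ackr1, a chemokine receptor of venules, was at -0.35 and missed the threshold without vehicle replicate 2, 3 or 4 or without arsenic replicate 2, 3 or 4 (adjusted p from 0.0737 to 0.153). It missed it as well in DESeq2 (0.159), in limma-voom (0.0518), in the robust fit (0.0541), with no filter (0.0852) and with Xist as a covariate (0.144). Madcam1 missed it without vehicle replicate 1 (adjusted p = 0.0774) or 2 (0.0710), and without arsenic replicate 1 (0.0533) or 4 (0.0876). In the haemostasis list, which Vwf belongs to, 3 of 9 were lower and 2 higher (median -0.09), and the share lower was near that of all genes. Besides Vwf, Tfpi, an inhibitor of coagulation, was at -0.24 (adjusted p = 0.00276), while the protein C receptor Procr rose (0.38, adjusted p = 0.00255), as did the plasminogen activator Plat (0.33, adjusted p = 0.00151).

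**Figure D5:**
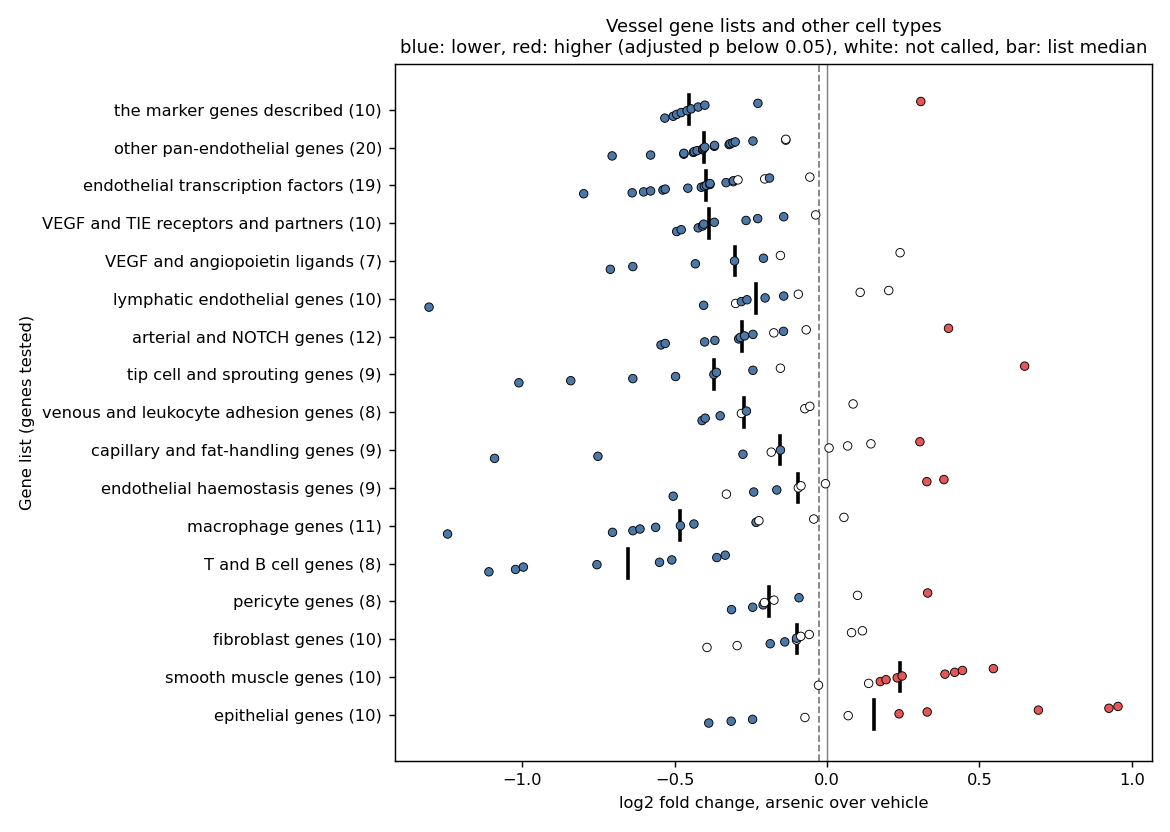
Log2 fold change (arsenic over vehicle) of each tested gene in the vessel lists and in lists for other cell types, coloured where the adjusted p is below 0.05, with the list median as a bar. The dashed line is the median of all genes tested. The pan-endothelial, transcription factor and receptor lists lie around -0.4, and the smooth muscle list lies above 0.

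Markers of other cell types moved as well. Of 11 macrophage genes, 8 were lower and none higher (median -0.48). Their summed level was 601 to 653 CPM in vehicle pools and 347 to 389 CPM in arsenic pools. They included Csf1r at -0.56 (adjusted p = 3.55e-06) and the complement genes C1qb at -0.61 and C1qc at -0.64. Timd4 and Cd163, named after their values were seen because resident macrophages carry them, were at -0.22 (adjusted p = 0.191) and -0.04 (adjusted p = 0.829). Mrc1 of the same list, also named after its values were seen, was lower without overlap (-0.23, adjusted p = 0.00232 in the edgeR test). The part of macrophage RNA in the rise of Lyve1 was not tested. All 8 tested T and B cell genes were lower (median -0.65, among them Cd4 at -0.76, Cd8a at -1.11, Cd3e at -1.02 and Cd3g at -0.997). With vehicle replicate 3 or arsenic replicate 1 left out 4 were lower, and with vehicle replicate 2, arsenic replicate 2 or arsenic replicate 4 left out 5 were.

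Platelets hold VWF and CD31 too. Their defining genes were low, with Pf4 at a mean of 3.39 ± 0.61 CPM in vehicle pools and 2.92 CPM in arsenic pools (log2 -0.24, adjusted p = 0.263, and 0.0429 with Xist as a covariate), Itga2b at -0.27 (adjusted p = 0.211) and Ppbp at 8 counts over all libraries. Of the 4 platelet genes tested, Gp9 was lower (-1.05, adjusted p = 0.0114) and Gp1bb was higher (1.49, adjusted p = 3.99e-09). Without vehicle replicate 4 and arsenic replicate 3, Gp9 was at -0.77 and missed the threshold (adjusted p = 0.0947). The summed level of the list was 10.3 to 13.1 CPM in vehicle pools and 19.7 to 23.3 CPM in arsenic pools, a rise set by Gp1bb alone among the tested genes (5.55 to 15.67 CPM), since the means of Pf4, Itga2b and Gp9 were lower with arsenic. The part of platelet RNA in the fall of Vwf was not tested.

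Cells around the vessels were covered by 3 lists. Of 8 pericyte genes, 4 were lower and 1 was higher (median -0.19), with 2 higher without vehicle replicate 4. The receptor Pdgfrb was at -0.31 (adjusted p = 2.08e-05), Notch3 at -0.24, Cspg4 at -0.21 and the potassium channel Kcnj8 at 0.33 (adjusted p = 0.00287). Of 10 smooth muscle genes, 8 were higher and none lower (median 0.24), led by Cnn1 at 0.55, Actg2 at 0.44, Acta2 at 0.42 and Tagln at 0.39. Of 10 fibroblast genes, 3 were lower and none higher (median -0.10), and the share lower was near the 33.0% of all genes. The fibroblast count was 1 without arsenic replicate 2 or 4 and 6 without arsenic replicate 3, and 1 fibroblast gene was higher without arsenic replicate 2. The lower ones were Fbln1 at -0.19 (adjusted p = 0.0123), Lum at -0.14 (adjusted p = 0.0187) and Dcn at -0.10 (adjusted p = 0.0406), and their groups overlapped. Fbln1 missed the threshold without vehicle replicate 2 (adjusted p = 0.0623), Lum without vehicle replicate 3 or arsenic replicate 2 or 4, and Dcn without any of vehicle replicates 3 and 4 and arsenic replicates 1, 2 and 4. In DESeq2 neither Lum (adjusted p = 0.0555) nor Dcn (0.0882) passed, and Dcn did not pass with total counts only (0.0625), with no filter (0.119) or with a minimum of 1 CPM in 4 libraries (0.0504).

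The epithelium makes up much of the RNA, and its 10 listed genes were divided, with 5 higher and 3 lower (median 0.15). Their summed level was 7970 to 8412 CPM in vehicle pools and 9838 to 10370 CPM in arsenic pools. The keratins Krt19 (0.95), Krt20 (0.92) and Krt8 (0.69) rose, and Epcam (-0.39), Cldn7 (-0.24) and Elf3 (-0.31) fell. The part of epithelial and muscle RNA in the falls of the vessel markers was not tested. The remaining lists gave 2 lower and 1 higher of 9 enteric neuron and glia genes, none lower or higher of 5 mesothelial genes, 1 lower of 5 fat cell genes and 1 lower of 1 red cell gene. The globin genes Hba-a1, Hba-a2, Hbb-bs and Hbb-bt were listed at 0 in every library and not tested. How reads shared by similar genes were treated is not stated, so these zeros do not show that globin RNA was absent. Leaving out single pools moved the counts of these 4 lists by 1 or 2 genes.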

How the data were processed

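RNA of the small intestine was sequenced in 8 libraries, 4 per group. The submitters' processing notes name the tools bcl2fastq (2.20), STAR (2.7.9a) and DESeq2 (1.34.0) and the build mm10, and no source used here states the counter, annotation or strand setting. The authors deposited raw counts per gene symbol, the input of every test, and totals ran from 18786779 to 29417666 counts per library. The authors' deposited table of their own comparison holds log2 fold changes and adjusted p-values, quoted once. Their normalized and regularized log tables were not used.

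Groups come from the treatment label, and replicate numbers are names in accession order. Genes were kept by filterByExpr (minimum count 10, minimum total 15), which left 15298, scaled by TMM and tested with edgeR 4.0.16 (glmQLFit, glmQLFTest, two-sided, R 4.3.3), group as the only term, adjusted by Benjamini-Hochberg over all genes at 0.05. Log2 ratios used a prior count of 2. A permutation test planned for the Lyve1 ratios is not reported, because the separate values of both genes fix its outcome. Within groups, every pair of pools varied beyond counting error (chi-square over its degrees of freedom, 2.97 to 13.4). The fit was tested on simulated data. Positions and transcript lengths came from GENCODE M21 (mm10), and promoter and miRNA sequences from RefSeq by symbol. Vegfd and Cavin2 were found under their older symbols Figf and Sdpr.

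The markers, lists and tests were chosen with earlier results of these data known. Genes named from a list were up to 4 with the smallest p, and called members against the direction of most. Alternatives were upper-quartile scaling, total counts, DESeq2 1.42.0, limma-voom 3.58.1, a robust fit, other filters, Xist as a covariate, a test against a 1.2-fold change and leaving out each library. Leaving out 2 libraries together was added after the data had been seen.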

Additional observations from a re-analysis of the deposited data

Results flagged for a closer look

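In 1 of 20 groups of 4 pools examined (10 markers in 2 groups), a single pool stood far from the rest: Egfl7 in vehicle replicate 2 was at 40.75 CPM, while the other vehicle pools lay between 34.6 and 35.4 CPM. Chance gives about 1 such group in 20. Without that pool the fall of Egfl7 was -0.33 on the log2 scale.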

How the results depend on the processing

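Of 180 refits of single markers (10 markers under 18 alternatives), 178 kept direction and side of the threshold, 2 lost the call and none reversed. The 2 were Emcn (adjusted p = 0.756) and Lyve1 (adjusted p = 0.203), both against a 1.2-fold change, under which 0 markers were called higher, 8 lower, and 2562 and 2736 of all genes lower and higher. With 1 library left out, 9 markers were lower and 1 higher each time. Under that 1.2-fold test, list counts that moved included 11 of 20 pan-endothelial genes lower, 3 arterial, 2 lymphatic, 2 ligand and 0 venous ones. With the longest annotated transcript, vehicle levels per kb were 29.7 for Pecam1, 19.6 for Egfl7 and 6.35 for Emcn. No paired analysis was possible because the labels give the groups no shared replicate numbers. At these depths the markers had 414 to 5682 counts per library, and genes near 1 CPM were less precise (Cd8a log2 fold change SE 0.20).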
